A study of Ovis aries with 14 samples.

Results

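DCN, TIMP1 and PTGDS were followed as markers of the meninges and connective tissue in the hypothalamus of fetal sheep exposed to triclosan, an antibacterial agent used in soaps and toothpaste. All probes whose gene name or matched symbol was one of these were taken, which gave 5 of the 15008 probes on the array and 3 of the 901 named genes that were tested. Hypothalamic RNA was collected at about 130 days of fetal age and hybridised to single-colour Agilent ovine arrays. In the direct arm, triclosan at 250 µg per day (n = 4) or vehicle (n = 4) was given intravenously for 2 days to the catheterised fetus. In the indirect arm, the ewe received triclosan at 100 µg/kg per day (n = 3) or vehicle for 2 days. Of 3 deposited maternal vehicle arrays, replicate 3 was left out, because at all 15744 spots its signal was 0.6 times that of replicate 1 plus 0.4 times that of replicate 2. The analysis thus used 13 arrays, with maternal vehicle at n = 2. The sources used here do not say whether replicate arrays represent different pregnancies, so the p-values measure only the spread between these arrays.

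Decorin, encoded by DCN, is a small leucine-rich proteoglycan that binds collagen fibrils and holds transforming growth factor beta in the matrix. TIMP1 is a secreted inhibitor of matrix metalloproteinases, the enzymes that cut the extracellular matrix, and its gene is induced by inflammatory cytokines. PTGDS, the lipocalin-type prostaglandin D synthase, makes prostaglandin D from prostaglandin H and is secreted into the cerebrospinal fluid, where it also carries lipophilic molecules. In the brain, fibroblasts of the meninges make all of these transcripts, PTGDS is also made by oligodendrocytes and the choroid plexus, and TIMP1 can be induced in astrocytes.

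The probes read the 3′ part of each transcript, and the coding probe of DCN and the coding part of the PTGDS probe are printed because they define what was hybridised. The DCN sequence is probe 2 of that gene, which begins at base 1071 of the transcript, and probe 1 begins at base 1206. The 56 bases of PTGDS start at base 547 and run to the stop codon, in capitals.
DCN probe 2: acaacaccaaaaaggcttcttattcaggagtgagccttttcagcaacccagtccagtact
PTGDS probe 1: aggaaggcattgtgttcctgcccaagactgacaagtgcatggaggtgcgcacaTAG
The TIMP1 probes share 59 of their 60 bases and are therefore a repeat of one measurement. Both hold the polyadenylation signal letters AATAAA on the printed strand, starting at base 53 of probe 1 and base 54 of probe 2, as do 845 of all 15008 probes (5.63%). The DCN probes share no run longer than 5 bases and are separate readings of the same transcript.

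All 5 probes were well above background on all 13 arrays, with 0 saturated spots. The ratio of signal to local background, over the 14 deposited arrays, was 62.0 to 235.5 for DCN probe 1, 15.6 to 53.6 for DCN probe 2, 95.6 to 222 for TIMP1 probe 1 and 1205 to 2397 for PTGDS. Levels below are log2 processed signals relative to the 75th percentile of the array, so that 0 is the level of a fairly bright probe. Of 19 hypothalamic peptide genes listed, 13 were measured, that is, kept as well above background on at least 3 arrays. Of those, 12 were well above background on all 13 arrays. Of the 48 genes on a meningeal and connective tissue list, 19 were measured and 18 of those were well above background on all 13 arrays. The same held for 11885 of the 13738 probes kept, so these counts do not check the tissue. The median processed signal of the fetal triclosan arrays was 236.1 to 307.4, below the 315.4 to 380 of the fetal vehicle arrays. Replicates 1, 2 and 3 shared slides 1, 2 and 3 across groups, fetal vehicle replicate 4 was also on slide 3, and fetal triclosan replicate 4 was by itself on slide 5 with its own scan day.

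The question in each arm was whether the levels differed between triclosan and vehicle. PTGDS was higher by 0.55 on the log2 scale with direct exposure (adjusted p = 0.0302 in limma), and had a value of −0.02 with indirect exposure. The direct call depended on the processing. It was lost with quantile normalisation, in the authors' deposited table of values (0.10) and with the fetal groups alone, and was kept in 8 of 13 fits without 1 array. Every fit that lost it left out a fetal array, and leaving out a maternal array does not alter the direct difference itself. Of the brightest decile of probes, where PTGDS lay, 27.7% were called higher. DCN and TIMP1 had their larger values in the indirect arm, 0.82 and 0.73, where every maternal triclosan array lay above both maternal vehicle arrays. Neither passed the test across all probes in either arm, and limma's test of the difference between the arms was not passed by any of the 3 genes. In bulk tissue, a change in the number of cells of a type and a change in RNA per cell cannot be told apart.

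**Figure D1:**
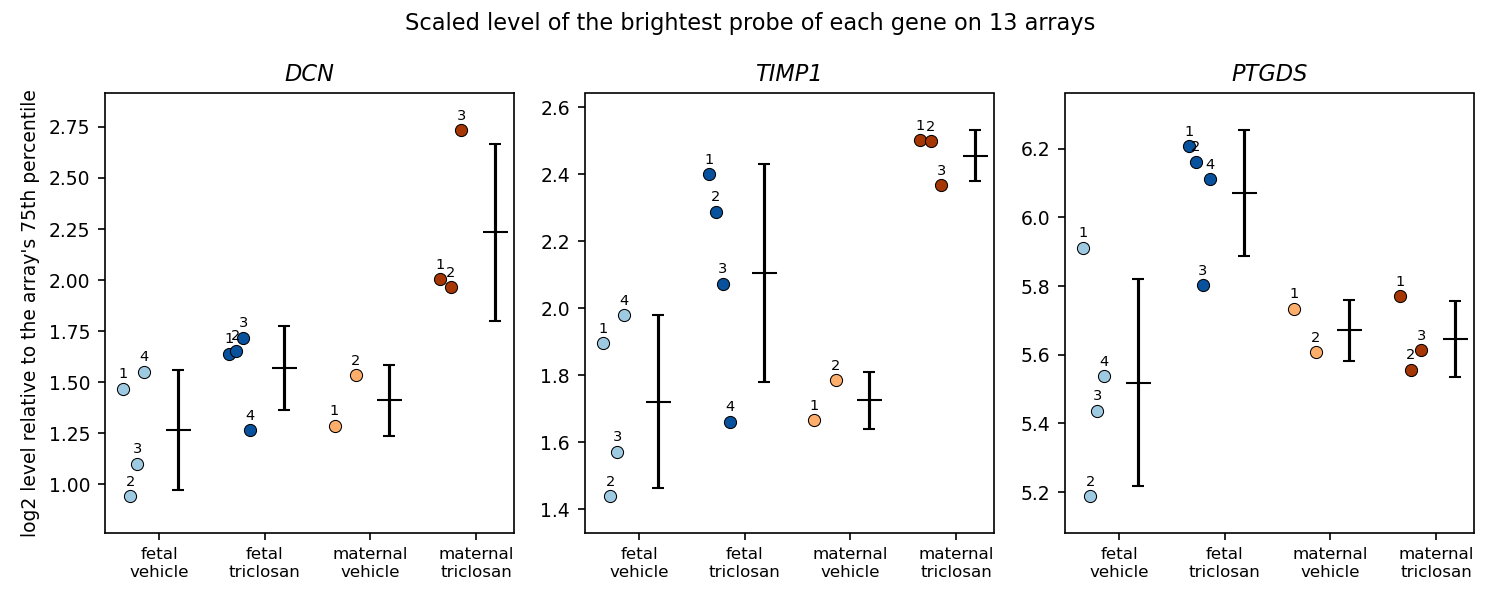
Level of the brightest probe of DCN, TIMP1 and PTGDS on each of 13 arrays (vertical axis, log2 relative to the 75th percentile of the array; the range differs between panels), by group. Numbers are replicates and black bars are the mean ± SD; the maternal triclosan arrays are the highest for DCN, and 3 of 4 fetal triclosan arrays are the highest for PTGDS.

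DCN probe 1 read 1.47, 0.94, 1.10 and 1.55 on the fetal vehicle arrays (replicates 1 to 4) and 1.64, 1.65, 1.72 and 1.27 on the fetal triclosan arrays. Replicate 4 was the lowest fetal triclosan array and lay inside the vehicle range, so the groups overlapped. The means were 1.27 ± 0.29 (SD, n = 4) and 1.57 ± 0.21 (SD, n = 4). The difference was 0.30 (SE 0.20, 95% interval −0.14 to 0.75), with limma's adjusted p = 0.329 and an exact two-sided permutation p = 0.171. The second DCN probe, which reads the coding end, had a difference of 0.11 (SE 0.19, adjusted p = 0.727 in limma). It read −0.42, −1.08, −0.79 and −0.40 with fetal vehicle and −0.46, −0.51, −0.44 and −0.83 with fetal triclosan, again with replicate 4 lowest. Within slides 1, 2 and 3 the probe 1 difference was 0.17, 0.71 and 0.39, and that of probe 2 was −0.04, 0.57 and 0.15.

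In the indirect arm, DCN probe 1 read 1.29 and 1.53 with maternal vehicle and 2.00, 1.96 and 2.73 with maternal triclosan. The groups did not overlap, and maternal triclosan replicate 3 stood above the other arrays of the study. The means were 1.41 ± 0.18 (SD, n = 2) and 2.23 ± 0.43 (SD, n = 3), a 1.77-fold difference in level. The log2 difference was 0.82 (SE 0.26, 95% interval 0.25 to 1.40), with an unadjusted p = 0.00882 and an adjusted p = 0.436 in limma's test. DCN probe 2 read −0.67 and −0.40 with maternal vehicle and 0.18, −0.10 and 0.63 with maternal triclosan, a difference of 0.77 (SE 0.25, adjusted p = 0.441). Both probes thus ordered the groups alike, and within slides 1 and 2 the difference was 0.72 and 0.43 for probe 1 and 0.85 and 0.30 for probe 2. Without maternal triclosan replicate 3 the probe 1 difference was 0.57 (adjusted p = 0.424).

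TIMP1 probe 1 read 1.90, 1.44, 1.57 and 1.98 with fetal vehicle and 2.40, 2.29, 2.07 and 1.66 with fetal triclosan. Fetal triclosan replicates 1 to 3 lay above every fetal vehicle array, and replicate 4 lay among them. The difference was 0.38 (SE 0.17, 95% interval 0.0063 to 0.76), with an unadjusted p = 0.0469 and an adjusted p = 0.145 in limma and an exact permutation p = 0.114. An unadjusted p this low with a higher value was seen at 13.2% of all probes. The overlapping TIMP1 probe 2 had a difference of 0.35 (SE 0.17, adjusted p = 0.189). Within slides 1, 2 and 3 the probe 1 difference was 0.50, 0.85 and 0.30. Without fetal triclosan replicate 4 it was 0.53 and passed the threshold (adjusted p = 0.0279), as it did with slide as a block, which sets that array aside (0.52, adjusted p = 0.0437), and with median scaling (0.60, adjusted p = 0.0344). Median scaling also moved the median direct difference of all probes, from −0.09 to 0.13.

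With maternal infusion, TIMP1 probe 1 read 1.67 and 1.79 with vehicle and 2.50, 2.50 and 2.37 with triclosan. The groups did not overlap and each was narrow, at 1.73 ± 0.085 (SD, n = 2) and 2.46 ± 0.076 (SD, n = 3), a 1.66-fold difference in level. The log2 difference was 0.73 (SE 0.22, 95% interval 0.24 to 1.22), with an unadjusted p = 0.00704 and an adjusted p = 0.436 in limma. TIMP1 probe 2 had a difference of 0.68 (SE 0.22, adjusted p = 0.441), and within slides 1 and 2 the probe 1 difference was 0.84 and 0.71. Both DCN probes and both TIMP1 probes were thus higher with no overlap in the indirect arm, which was also the case at 19.9% of all probes, while 19% were lower with no overlap. For these 4 probes the exact two-sided permutation p was 0.2, the smallest that 3 arrays against 2 allow. In limma's test 0 of 13738 probes were called in the indirect arm (0%), and 1324 (9.64%) had an unadjusted p under 0.05, 4.93% higher with triclosan.

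PTGDS read 5.91, 5.19, 5.44 and 5.54 with fetal vehicle and 6.21, 6.16, 5.80 and 6.11 with fetal triclosan. Fetal triclosan replicates 1, 2 and 4 lay above every vehicle array, and the groups overlapped because fetal vehicle replicate 1 lay above fetal triclosan replicate 3. The means were 5.52 ± 0.30 (SD, n = 4) and 6.07 ± 0.18 (SD, n = 4), a 1.47-fold difference in level. PTGDS rose by 0.55 (SE 0.15, 95% interval 0.21 to 0.89), with an adjusted p = 0.0302 in limma and an exact permutation p = 0.0571, where 0.0286 is the smallest that 4 arrays against 4 allow. It was the 1 probe of the 5 that was called, and 18.2% of all probes were called in this comparison, 6.82% higher and 11.4% lower. Within slides 1, 2 and 3 its difference was 0.30, 0.97 and 0.31, with slide 2 holding the lowest vehicle array.

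The PTGDS probe was among the brightest on the array, at the 99.2 percentile of mean level, and bright probes were shifted upward in the direct arm. The median difference of the 1374 probes in the brightest decile was 0.24, against −0.09 over all probes, and 27.7% of them were called higher and 1.38% lower. The PTGDS value exceeded that of 93.9% of all probes and of 86.8% of its decile. With quantile normalisation, which gives all arrays one distribution, the PTGDS difference was 0.24 (adjusted p = 0.292), and in the authors' deposited table of values it was 0.10 (adjusted p = 0.688 in limma). Relative to the median of all probes it was 0.64 with 75th percentile scaling, and necessarily the same with median scaling, as both shift all probes of an array alike. It was 0.24 after quantile normalisation and 0.10 in the authors' table. A fit of the fetal groups alone did not call it either (adjusted p = 0.0864), nor did the fits without fetal triclosan replicate 1 (0.0771) or 2 (0.0651), or fetal vehicle replicate 2 (0.0760), 3 (0.0845) or 4 (0.0593).

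**Figure D2:**
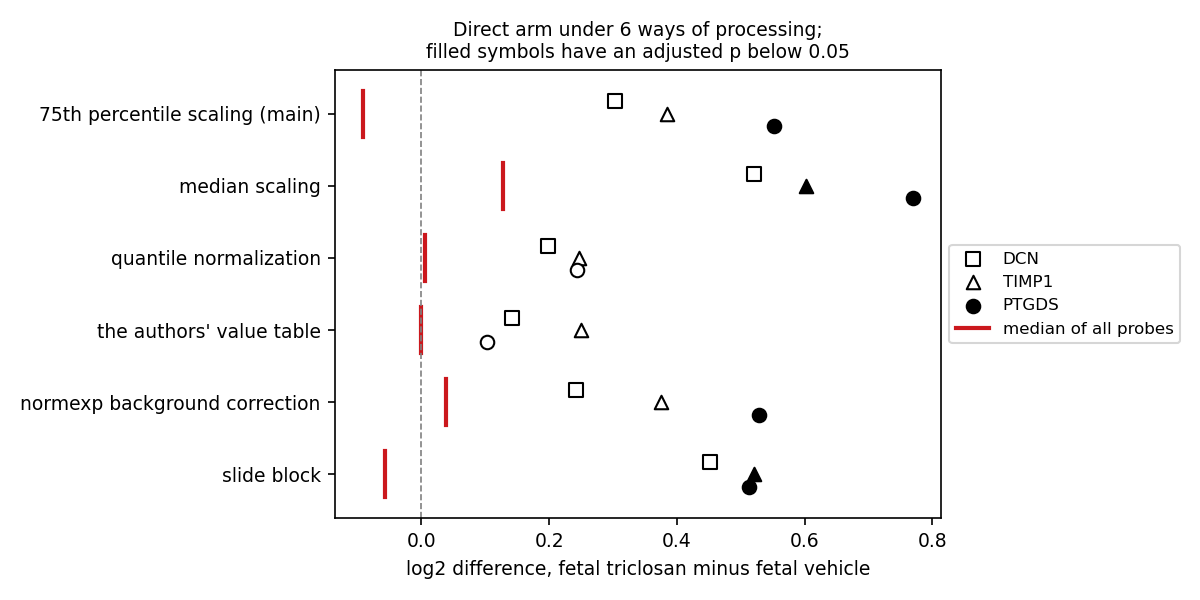
Log2 difference between fetal triclosan and fetal vehicle (horizontal axis) for the brightest probe of each gene under 6 ways of processing (vertical axis), with the median of all probes as a red line and filled symbols for an adjusted p below 0.05. PTGDS moves from 0.55 with 75th percentile scaling to 0.24 after quantile normalisation and 0.10 in the authors' table.

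With maternal infusion, PTGDS read 5.73 and 5.61 with vehicle and 5.77, 5.56 and 5.61 with triclosan. The groups overlapped and had means of 5.67 ± 0.089 (SD, n = 2) and 5.65 ± 0.11 (SD, n = 3). The difference was −0.02 (SE 0.20, adjusted p = 0.978 in limma), with a 95% interval of −0.46 to 0.41 that also holds changes of moderate size. Its sign turned with median scaling (0.015) and with slide as a block (0.026).

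**Figure D3:**
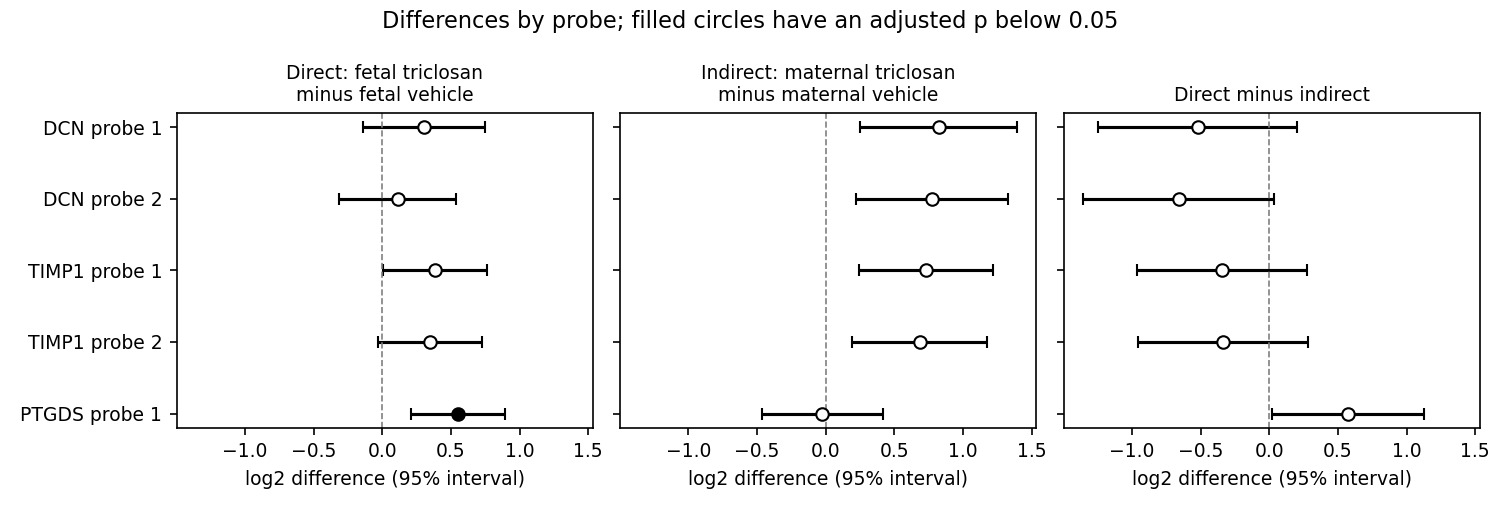
Log2 differences (horizontal axis, with 95% intervals from limma) of the 5 probes (vertical axis) in the direct arm, in the indirect arm and between the arms; a filled circle has an adjusted p below 0.05. Only PTGDS in the direct arm is filled, and the DCN and TIMP1 intervals in the indirect arm lie above 0.

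Whether the arms differed was tested directly. The direct minus the indirect value was −0.52 for DCN (SE 0.33, adjusted p = 0.453 in limma), −0.35 for TIMP1 (SE 0.28, adjusted p = 0.547) and 0.58 for PTGDS (SE 0.25, adjusted p = 0.330). Of these, PTGDS had an unadjusted p = 0.0427. With slide as a block the DCN value was −0.28, and without maternal triclosan replicate 3 it was −0.27. The TIMP1 value was −0.17 with median scaling and −0.20 without fetal triclosan replicate 4, and that of PTGDS was 0.34 with quantile normalisation and 0.21 in the authors' deposited table. In this contrast limma called 0 of 13738 probes (0%), and 2013 (14.7%) had an unadjusted p under 0.05. The arms also differed in dose and in the route, which cannot be told apart. Maternal vehicle against fetal vehicle gave 0.14 for DCN, 0.0044 for TIMP1 and 0.15 for PTGDS, each with an adjusted p = 0.999 in limma, where 0 probes were called (0%) and 450 (3.28%) had an unadjusted p under 0.05. The TIMP1 value took the opposite sign under 6 alternatives, among them median scaling (−0.023) and normexp correction (−0.015). These contrasts share vehicle arrays with those above and are not independent of them.

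Among the 19 measured genes of the meningeal and connective tissue list, PTGDS was the 1 called higher in the direct arm and 0 were called lower, where 5.99% of the 901 named genes were called higher and 9.1% lower. The median difference of the list was 0.078, and 0.063 over the 16 genes other than DCN, TIMP1 and PTGDS, against −0.10 over all named genes. The fibrillar collagen genes had values below 0, COL3A1 at −0.72 (SE 0.27, adjusted p = 0.0895) and COL1A2 at −0.42 (SE 0.20, adjusted p = 0.166). SERPINF1, a secreted anti-angiogenic serpin, had −0.60 (SE 0.25, adjusted p = 0.120), and IGFBP5, a binding protein of insulin-like growth factors, −0.52 (SE 0.37). COL3A1 was called lower with the mean of its probes (−0.89, adjusted p = 0.0232) and without fetal triclosan replicate 3 (−0.92, adjusted p = 0.0330), while its value was −0.26 with normexp background correction (adjusted p = 0.454) and −0.35 in the authors' deposited table (adjusted p = 0.197). COL1A2 was called lower without that same array (−0.59, adjusted p = 0.0345), and its value was −0.086 with normexp (adjusted p = 0.799) and −0.11 in the authors' deposited table (adjusted p = 0.619). Values of the list thus lay on both sides of 0 in the direct arm. COL1A2, COL3A1, SERPINF1 and IGFBP5 had low levels, with means from −4.06 to −2.91 on the fetal vehicle arrays. Dim probes were shifted downward in this arm, with median differences of −0.29 to −0.26 in brightness deciles 1 to 4. DCN and TIMP1 lay in decile 9, which had a median of 0.11, and exceeded 73.9% and 82.7% of its probes. The part of brightness in these values was not tested.

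In the indirect arm the list's median was 0.38, or 0.37 without the 3 genes, against 0.031 over all named genes. Of the list 0 genes were called either way, as among all named genes (0%). IGFBP6, another binding protein of insulin-like growth factors, had 0.76 (SE 0.22, unadjusted p = 0.00489, adjusted p = 0.412). IGF2, a growth factor that the meninges and choroid plexus secrete, had 1.57 (SE 0.67, adjusted p = 0.503), the largest value of the list, with 1.81, 1.50 and 3.08 on the triclosan arrays and −0.22 and 1.34 on the vehicle arrays. The IGF2 value was 0.79 without maternal vehicle replicate 1 and 2.35 without maternal vehicle replicate 2. VIM, an intermediate filament of mesenchymal cells and glia, had 0.51 (SE 0.27) and BGN, the proteoglycan nearest to decorin, 0.034 (SE 0.27). The summed level of the 16 other genes was 116 to 129 times the 75th percentile on the maternal triclosan arrays, above the 82.4 to 91.4 of their vehicle arrays. On the fetal triclosan arrays it was 78.1 to 113, against 67.0 to 78.6 on the fetal vehicle arrays. VIM, with a mean level of 6.45 with maternal triclosan and 5.94 with maternal vehicle, made up most of this sum. The mean log2 level of the 16 genes, which weights them equally, was −0.38 to 0.014 with maternal triclosan and −0.72 to −0.48 with maternal vehicle. In the direct arm that mean overlapped, at −0.81 to −0.38 with triclosan and −0.78 to −0.39 with vehicle. The sum and the mean of the 16 genes were higher with no overlap in the indirect arm. Among single probes the same was seen at 19.9%, and 19% were lower with no overlap.

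**Figure D4:**
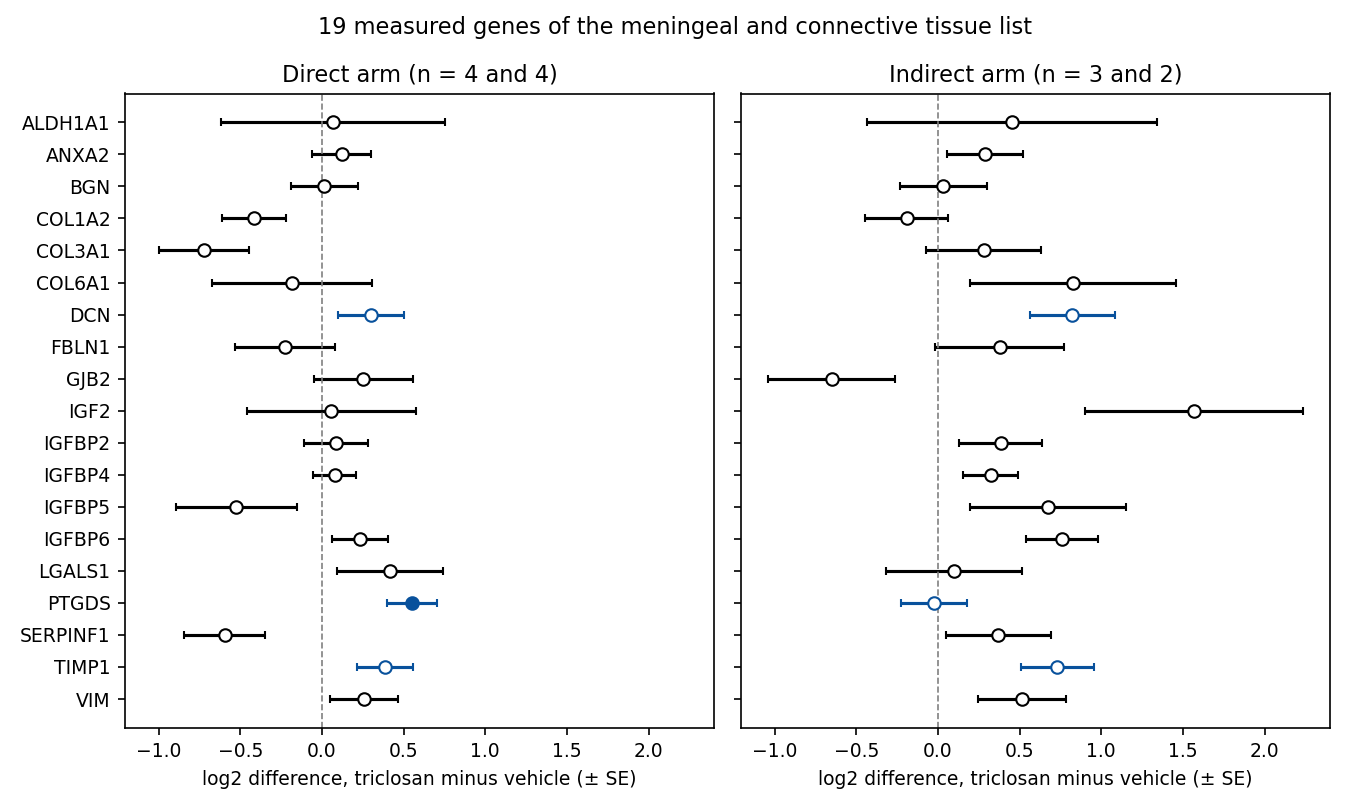
Log2 differences between triclosan and vehicle (horizontal axis, ± SE) for the 19 measured genes of the meningeal and connective tissue list (vertical axis) in the direct and the indirect arm, with DCN, TIMP1 and PTGDS in blue and a filled circle for an adjusted p below 0.05. The median is 0.078 in the direct arm and 0.38 in the indirect arm, and COL3A1, SERPINF1 and IGFBP5 lie below 0 in the direct arm and above 0 in the indirect arm.

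The partners of each gene were described by list. For DCN, BGN was the other measured member of 12 small leucine-rich proteoglycans, with a direct value of 0.016. Of 13 measured genes listed as partners of decorin (growth factors, receptors and SMAD signal proteins), 0 were called in either arm. Among all named genes 5.99% were called higher and 9.1% lower in the direct arm, and 0% in the indirect arm. The median of the partners was −0.18 in the direct arm and −0.0097 in the indirect arm. EGFR, a receptor that decorin binds, had a direct value of −0.76 (SE 0.27, adjusted p = 0.0695), and TGFB3, a transforming growth factor beta, had an indirect value of −0.95 (SE 0.33, adjusted p = 0.458).

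For TIMP1, 11 of 33 metalloproteinase, inhibitor and proteolysis genes were measured. Of these, 0 were called higher and 1 lower in the direct arm, with a median of −0.45, against 5.99% higher, 9.1% lower and a median of −0.10 over all named genes. Most genes of this list had low levels, and dim probes were shifted downward in the direct arm, with medians of −0.29 to −0.26 in the 4 dimmest deciles of all probes. CTSB, the lysosomal protease cathepsin B, fell by 0.69 (SE 0.20, adjusted p = 0.0363), a call lost with median scaling (−0.47, adjusted p = 0.101), with only the fetal groups (adjusted p = 0.0885) and in 7 of 13 fits without 1 array. Those were the fits without each fetal vehicle array, fetal triclosan replicate 1 or 2, or maternal triclosan replicate 1, with adjusted p from 0.0514 to 0.0847. The gelatinase MMP2 had −0.45 (SE 0.16, adjusted p = 0.0772) and MMP7, the matrilysin, −0.86 (SE 0.32, adjusted p = 0.0807), with MMP7 well above background on 2 of 4 fetal triclosan arrays. The related inhibitors were not called, with TIMP2 at −0.06 (SE 0.22) and TIMP3 at −0.32 (SE 0.14, adjusted p = 0.150), and without fetal triclosan replicate 2 both TIMP3 (−0.44, adjusted p = 0.0413) and MMP7 (−1.09, adjusted p = 0.0380) passed. Other processing gave smaller values, with MMP7 at −0.047 with normexp (adjusted p = 0.899), MMP2 at −0.16 in the authors' deposited table (adjusted p = 0.536) and TIMP3 at −0.10 with median scaling (adjusted p = 0.711). Their median with maternal infusion was 0.025, with TIMP3 at −0.40 (SE 0.19). Of 14 measured inflammatory inducers of TIMP1, 0 were called higher and 1 lower in the direct arm, near the share over all named genes (5.99% and 9.1%). JUND, a Jun family transcription factor, fell by 1.14 (SE 0.22, adjusted p = 0.00691), and the cytokine IL6 had 0.37 (SE 0.13, adjusted p = 0.0772).

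For PTGDS, 9 of 27 prostaglandin genes were measured, of which 1 was called higher and 1 lower in the direct arm, near the 5.99% and 9.1% of all named genes, with a median of −0.0018. SLCO2A1, the transporter that takes prostaglandins up into cells, fell by 1.01 (SE 0.27, adjusted p = 0.0248). That call was lost with only the fetal groups (adjusted p = 0.0727), quantile normalisation (0.0715) and the authors' values (0.0516). Leaving out fetal vehicle replicate 1 (0.0706), 2 (0.0543) or 3 (0.0637) also ended it. The cyclooxygenases that make prostaglandin H, PTGS1 at 0.39 (SE 0.31) and PTGS2 at 0.56 (SE 0.55), did not pass, nor did the prostaglandin E receptors PTGER2 at −0.49, PTGER3 at −0.32 and PTGER4 at −0.52. With maternal infusion 0 of the 9 were called, as among all named genes (0%), and SLCO2A1 had −0.44 (SE 0.35). PAEP, the other measured gene of 11 lipocalins, had −0.12 in the direct arm.

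Markers of other cell types were measured on the same arrays. Their calls stand beside 5.99% higher and 9.1% lower among all named genes in the direct arm, and 0% in the indirect arm. Of 4 measured erythroid genes, AHSP, the chaperone of alpha haemoglobin, was called higher in the direct arm (0.94, SE 0.28, adjusted p = 0.0383) and had 1.45 in the indirect arm (SE 0.36, adjusted p = 0.355), while HBB, a beta globin, had 1.32 (adjusted p = 0.0603) and 1.80 (adjusted p = 0.436). The AHSP call was lost with slide as a block (adjusted p = 0.0766), with the mean of its probes (0.0805) and without fetal vehicle replicate 2, 3 or 4, fetal triclosan replicate 1, 2 or 4 or maternal triclosan replicate 2 (0.0514 to 0.0899). The summed erythroid level was 11.9 to 23.5 times the 75th percentile on the fetal triclosan arrays, against 4.38 to 12.6 on their vehicle arrays. On the maternal triclosan arrays it was 10.6 to 26.8, against 3.39 to 8.97 on theirs. HBB made up most of these sums, with a mean level of 4.01 with fetal triclosan, where AHSP, CA1 and EPOR had −3.20, −4.98 and −3.84. CA1 had 1.14 in the direct arm (adjusted p = 0.116 in limma) and 0.34 in the indirect arm, where it was well above background on 1 array of each group. EPOR had values below 0 in both arms, −0.33 and −0.07. Of 10 endothelial and pericyte genes, 0 were called higher and 3 lower in the direct arm, against 5.99% and 9.1% of all named genes. Their summed level was 2.73 to 4.99 with fetal vehicle and 1.75 to 3.78 with fetal triclosan, while in the maternal groups it was 2.18 to 2.97 after triclosan and 2.27 to 2.96 after vehicle. The 4 measured choroid plexus genes, with 0 called, had a summed level of 8.46 to 12.5 with fetal vehicle and 7.71 to 23.0 with fetal triclosan, and with maternal infusion 10.1 to 10.5 with vehicle and 11.1 to 18.4 with triclosan. For the ependyma and tanycyte list, of which VIM and AQP4 were measured and 0 were called, the sum was 152 to 167 with maternal triclosan and 123 to 126 with maternal vehicle, and 125 to 150.3 with fetal triclosan against 101 to 125 with fetal vehicle. IGF2 and IGFBP2 of the choroid plexus list and VIM also stand on the meningeal list. AQP4 also stands on the astrocyte list, of which 5 genes were measured. FGFR3 of that list was called lower in the direct arm (−1.61, SE 0.35, adjusted p = 0.0106 in limma). It was well above background on 3 fetal triclosan arrays. GFAP had −0.63, EAAT2 −0.30, AQP4 0.13 and GJA1 0.46. With maternal infusion FGFR3 had −0.94, GFAP −0.43, EAAT2 −1.44 (adjusted p = 0.227), AQP4 0.18 and GJA1 −0.17. TTR, the choroid plexus transport protein for thyroid hormone, read −2.08, 1.98, 3.38 and −0.17 with fetal triclosan and 0.63, −0.97, −0.94 and 1.37 with fetal vehicle. Fetal triclosan replicate 3, with the highest TTR, had the lowest PTGDS of its group. Fetal vehicle replicates 1 and 4 were above the other fetal vehicle arrays for both genes. With maternal infusion TTR was lower, at −0.59, −1.79 and −1.58 with triclosan and 0.50 and −0.11 with vehicle (difference −1.51, SE 1.29, adjusted p = 0.699 in limma). The brightest gene of the choroid plexus sum was IGFBP2, with mean levels of 3.27 and 2.88 in these groups. Of 15 oligodendrocyte genes only TF, transferrin, was measured, at 0.010 (SE 0.43) in the direct arm and −0.90 (SE 0.55, adjusted p = 0.598 in limma) in the indirect arm. Summed hypothalamic peptide genes were at 26.4 to 52.4 with fetal vehicle and 54.0 to 104 with fetal triclosan. The brightest of them were ASIP (mean level 4.32 with fetal vehicle and 5.31 with fetal triclosan) and SST (3.15 and 4.29). Their mean log2 level overlapped, at −1.75 to −0.33 with fetal vehicle and −1.46 to 0.21 with fetal triclosan. With maternal infusion the sums overlapped, at 42.8 to 46.6 with vehicle and 34.6 to 61.7 with triclosan. Their brightest genes moved in opposite directions, ASIP from a mean of 4.78 to −0.48 (difference −5.25, SE 1.87, adjusted p = 0.459 in limma) and SST from 3.11 to 4.25. The mean log2 levels of the peptide genes with maternal infusion were −1.29 to −1.02 with vehicle and −0.74 to −0.15 with triclosan. The part of these cell types in the DCN, TIMP1 and PTGDS values was not tested.

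DCN and TIMP1 varied together across arrays. Over the 13 arrays, from 4 groups on 4 slides, their levels had a Pearson r of 0.82 and a Spearman rho of 0.93, and r was 0.92 without maternal triclosan replicate 3 and fetal vehicle replicate 2. Over the 8 fetal infusion arrays r was 0.92, and it was 0.52 for deviations from the group means. PTGDS followed the others less over all arrays, with an r of 0.14 against DCN and 0.39 against TIMP1, and more within the fetal infusion arrays, at 0.68 and 0.73. Those 8 arrays pool triclosan and vehicle, and their Spearman rho depended on the processing. Against DCN it was 0.60, with 0.40 after quantile normalisation and 0.024 in the authors' table. Against TIMP1 it was 0.79, with 0.60 and 0.43. The DCN probes correlated with each other at 0.97 and the TIMP1 probes at 0.99.

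**Figure D5:**
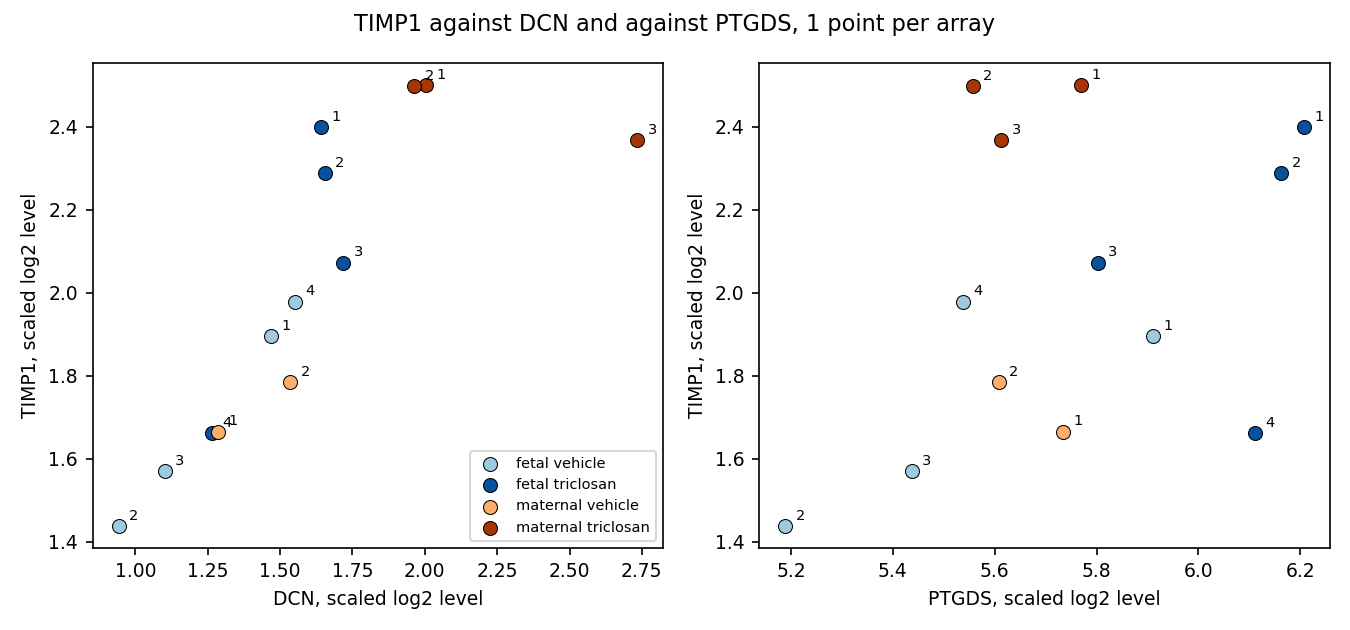
TIMP1 level (vertical axis, log2 relative to the 75th percentile of the array) against DCN and against PTGDS (horizontal axes, same unit), with 1 point per array, coloured by group and numbered by replicate. DCN and TIMP1 lie along one rising line apart from maternal triclosan replicate 3, and maternal triclosan replicates 1 and 2 have the highest TIMP1 levels but not the highest PTGDS levels.

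Likeness of pattern was measured as the Pearson r of levels over 13 arrays among 885 named genes with a value on every array. DCN was most like IGF2 (0.87), the endothelial receptor TIE1 (0.82), TIMP1 (0.82), the appetite peptide NPY (0.78) and ACACA (0.76), an enzyme of fatty acid synthesis. TIMP1 was most like the calmodulin-like CALML4 (0.93), the peptide gene TAC3 (0.90), NPY (0.89), the leptin receptor LEPR (0.85) and a probe that the files name only as RECEPTOR (0.85). The PTGDS neighbours were the G protein subunit GNG11 (0.89), the copper chaperone ATOX1 (0.86), the TATA-binding protein TBP (0.84), BBC1 (0.84) and the ATP synthase subunit ATP5MC2 (0.84), of which 4 lay above the 90 percentile of brightness. With deviations from group means the leading gene was TYR for DCN (0.95), LEPR for TIMP1 (0.90) and PON2 for PTGDS (0.77), so the neighbours depended on the measure.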

How the data were processed

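Per the file headers and the submitters' processing notes, the scanner files deposited by the authors contain an intensity for each spot. Agilent Feature Extraction 10.1.1.1 made them, and its processed signal is corrected for background within each array. The authors also deposited a table of values that lie on a log2 scale, with its scaling and filter not given in the sources used here. The genes and lists were chosen with earlier results of these data known. Control spots and outlier spots were left out, log2 processed signals were set relative to each array's 75th percentile, and probes well above background on at least 3 of 13 arrays were kept (13738 of 15008, with 250 missing values). A mean for each of 4 groups was fitted in limma 3.58.1 (R 4.3.3; residual degrees of freedom 9, prior 2.36). Two-sided p-values were adjusted over all probes by Benjamini-Hochberg at a threshold of 0.05. Fits were checked on simulated data. The probe with the highest mean stood for a gene. Every probe of DCN, TIMP1 and PTGDS was named, with up to 8 genes of each list, by unadjusted p in the direct arm. TIMP2 was added after its value was seen, and ASIP as one of the brightest peptide genes. Of 15008 probes, 1556 had a gene symbol, through RefSeq tables or the files, and all 5 probes matched by transcript; the files call PTGDS PGDS and TIMP1 TIMP-1. Printed sequences are those of the scanner files. No build is named in the files, so no coordinates are given. Permutation tests used scipy 1.17.1. The number of arrays limits the precision.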

Additional observations from a re-analysis of the deposited data

Results flagged for a closer look

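JUND, one of the inflammatory inducers listed for TIMP1, read −2.14 on fetal triclosan replicate 2, far from the other fetal triclosan arrays, which lay between −1.15 and −1.05. Its gap to the nearest array was 0.91 of the range of the group, above Dixon's 95% critical value for 4 samples. Among 34 groups of 4 arrays examined this way, chance marks about 1 in 20. Without that array JUND was lower by a log2 value of −0.88 (adjusted p = 0.00538 in limma) and was still called. No group of 4 arrays passed that value for DCN, TIMP1 or PTGDS. DCN fell just short of it on the fetal triclosan arrays, with a gap of 0.828 of the range for probe 1 and 0.823 for probe 2. For both probes the array set apart was fetal triclosan replicate 4, the lowest of its group and by itself on slide 5.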

How the results depend on the processing

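Under the alternatives, the brightest DCN and TIMP1 probes kept their sign in both arms (direct DCN probe 2 was −0.024 without fetal vehicle replicate 2) and neither was called in the indirect arm, with DCN at 0.73 to 0.86 (adjusted p 0.133 to 0.456 in limma) and TIMP1 at 0.71 to 0.79 (0.126 to 0.456). Leaving out each array gave 0.57 to 0.96 and 0.67 to 0.79; without 1 maternal vehicle array the lone one is assumed to vary like the other groups. Direct DCN was 0.14 to 0.52 and never called. Direct TIMP1 passed with median scaling (0.60), slide as a block (0.52) and without fetal triclosan replicate 4, over a range of 0.29 to 0.53 without 1 array. Direct PTGDS did not pass with only the groups compared (0.55), quantile normalisation (0.24), the authors' values (0.10) or the exact permutation test (0.55, p = 0.0571), and without 1 array it was 0.44 to 0.68 and passed in 8 of 13 fits. Each of those fits that did not pass left out a fetal array. The cause of these losses was not tested. Indirect PTGDS took the opposite sign with median scaling (0.015), the replicate block (0.036) and the slide block (0.026), and was −0.087 to 0.039 without 1 array. TIMP1 between the vehicle groups was −0.0030 with all 14 arrays, −0.023 with median scaling, −0.015 with normexp, −0.082 with the replicate block, −0.012 with slide as a random block and −0.030 with the slide block, ranging from −0.090 to 0.090 without 1 array.

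Deviations from the group means, over all probes kept, were correlated between fetal vehicle and fetal triclosan arrays. For arrays of the same number r was 0.13, 0.12 and 0.26 for replicates 1 to 3, which share a slide, and −0.17 for replicate 4, which does not. For arrays of different numbers it was −0.23 to 0.18, so the numbers were not taken to pair the arrays. With 2 vehicle arrays the maternal values (−0.085 and −0.077) decide nothing. Blocking on that number (the replicate block), direct PTGDS was 0.55 (adjusted p = 0.0238), direct TIMP1 0.38 (adjusted p = 0.167) and 2824 probes were called. Against 2498 probes called in the direct arm (937 higher, 1561 lower), 1275 were called with only the groups compared and 1214 to 2951 without 1 array, with 1642 without fetal vehicle replicate 1 and 1214 without fetal vehicle replicate 3. Median scaling gave 2175 higher and 946 lower. In the indirect arm 12 probes were called with all 14 arrays and 0 to 2 without 1 array (2 without maternal triclosan replicate 3, 1 without maternal vehicle replicate 2). Between the arms 4 were called with all 14 arrays, 1 with quantile normalisation and 0 to 12 without 1 array (12 without fetal triclosan replicate 3), and between the vehicle groups 0 to 2. The correlation of DCN with TIMP1 was 0.52 for deviations from group means, 0.84 after quantile normalisation and 0.83 in the authors' table; that of DCN with PTGDS was 0.24, 0.19 and 0.28, and that of TIMP1 with PTGDS 0.48, 0.28 and 0.22.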
